A study of Mus musculus with 10 samples.

Results

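Ipsilateral brain tissue was compared between 2 protocols of middle cerebral artery occlusion (MCAo), a stroke model in which an artery of the brain is closed and then opened again. The first, called the 48 h protocol, used 60 min of occlusion followed by 48 h of reperfusion. The second, the 72 h protocol, used 30 min followed by 72 h. The comparison rests on 4 of the 10 Illumina Mouse-6 arrays of the study, namely the ipsilateral arrays, which carry RNA from the hemisphere on the side of the occlusion. They were 1 wild-type (WT) and 1 Cd93 knockout (KO) array for each protocol, chosen by their labels and paired by genotype, without subtracting the contralateral side. All mice were C57/Bl6 and 10 weeks old. Occlusion time and reperfusion time change together, so their parts in any difference cannot be told apart. The other 6 arrays, 4 contralateral and 2 from untreated brain, 1 of each genotype, entered the model and serve here as a reference. Whether each array carried 1 mouse or a pool, and whether the hemispheres were taken from the same animals, is not stated in the labels. With 1 array per genotype and protocol, the p-values reflect the steadiness of a difference across the genotypes and across the other arrays, and that spread may be technical. The p-values within a hemisphere are too small if the hemispheres share mice. This does not hold for those after subtracting the contralateral side.

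After a stroke, resident microglia, the macrophages of the brain, and blood cells that enter the tissue clear dead cells, and they raise genes of lysosomes, lipid transport, complement and antigen presentation as they do so. Injured tissue also makes cytokines and neutrophil-attracting chemokines early, and microglia, vessel cells and astrocytes re-enter the cell cycle as repair sets in. A shorter occlusion usually leaves a smaller lesion than a longer one, so 48 h after 60 min and 72 h after 30 min are not points on 1 time course.

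On the ipsilateral arrays of the 48 h protocol, 15734 (WT) and 16310 (KO) of 46373 probes stood above background, against 14251 and 14463 under the 72 h protocol and between 12811 and 13971 on the other 6 arrays. Median raw intensities of the 4 ipsilateral arrays ran from 54.8 to 58.9, and their normalized profiles correlated at 0.981 to 0.993 across genes. General neuronal genes were measured in 31 of 34 cases, with median log2 intensities from 11.23 to 11.42 on the 4 arrays, so the defining markers of brain tissue were present. The targeted gene Cd93, which encodes a surface glycoprotein found on endothelium and myeloid cells, read 8.64 and 7.81 in WT and 6.21 and 6.23 in KO tissue at 48 h and 72 h. Its KO values lay below the WT values in both protocols. The position of its probe relative to the deletion is not given. Cd93 did not pass the test between protocols (-0.41 ± 0.28, limma adjusted p = 0.418).

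Changes below are log2 differences of normalized intensity, 72 h minus 48 h protocol, given with limma's standard error, and a gene is called where its adjusted p was under 0.05. Of 9352 genes tested, 315 were called, 175 higher at 72 h (1.87%) and 140 lower (1.5%). All 315 had the same sign in WT and in KO, against 69.6% of all genes. The call rests on the mean of these 2 differences, so a shared sign follows largely from it. Of the called genes, 25 of the higher and 6 of the lower differed at least 2-fold. The share of higher genes changed with the scaling. Centring each array on its median, in place of quantile normalization, moved the median difference of all genes from 0.012 to -0.26 and called 1727 genes, of which 87 (5.04%, against 55.6%) were higher. Of the 175 higher genes 80 were also called that way, and so were all 140 lower genes. The count also depends on each of the ipsilateral arrays, because a protocol then rests on 1 array. It was 1 without KO at 48 h, 28 without WT at 48 h, 77 without KO at 72 h and 19 without WT at 72 h. A bulk array cannot tell fewer cells of a type from less RNA per cell. Most genes named below were chosen by their difference on the ipsilateral arrays. Where their protocols do not overlap, this follows largely from that choice and is a description.

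**Figure D1:**
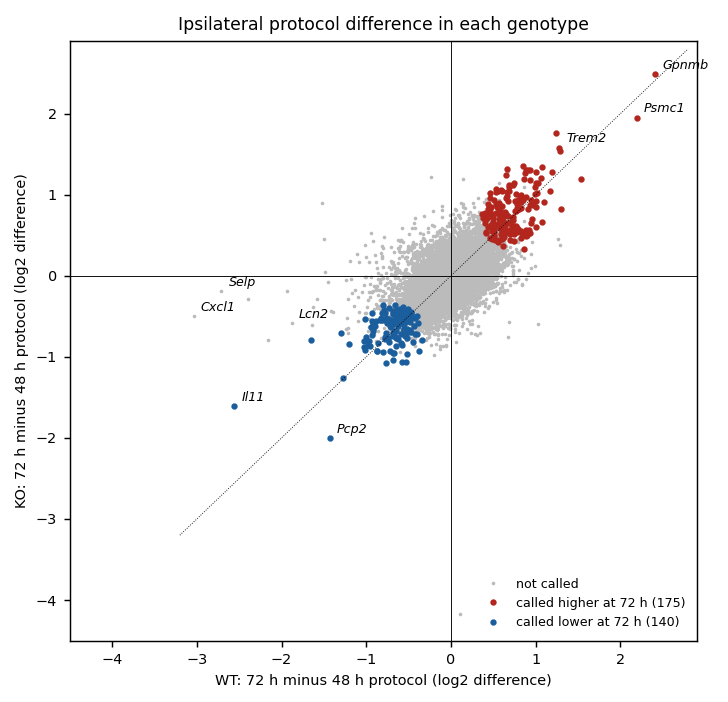
Difference between protocols (72 h minus 48 h, log2) in WT on the x axis and in KO on the y axis for the 9352 tested genes, with called genes in colour and the diagonal dotted. All 315 called genes lie in the quadrants where both genotypes share a sign, which follows largely from the way they were called. Cxcl1, Selp and Lcn2 lie far from the diagonal.

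The gene with the largest increase was Gpnmb, which encodes a lysosome-associated glycoprotein of phagocytes. Its log2 intensity was 9.10 (WT) and 9.26 (KO) at 48 h and 11.50 and 11.74 at 72 h. Both 72 h values lay above both 48 h values, and all 4 lay above the contralateral and untreated means of 7.29, 7.63 and 6.78. The change was 2.45 ± 0.17 (adjusted p = 0.000457), and the other 2 tested probes of the gene were called as well (2.84 and 2.10). It kept its call without each of the 10 arrays in turn, with changes from 2.39 to 2.51 and adjusted p-values up to 0.0165. Gpnmb was also the single gene called when the contralateral difference was subtracted (2.10 ± 0.24, adjusted p = 0.0451).

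Markers of microglia were higher at 72 h or did not pass. Of 16 members of the list labelled homeostatic microglia, 12 were measured. Among these, 5 were called higher and none lower, against 1.87% and 1.5% of all genes. All 12 differences were positive (median 0.60, against 0.012 for all genes). Not all members mark the resting state, among them Trem2, Tyrobp and Aif1. Under median centring the median was 0.31 against -0.26, and 5 were again called higher, where 87 of all 9352 genes were. Trem2, a lipid-sensing receptor of microglia, read 7.90 and 7.86 at 48 h and 9.18 and 9.44 at 72 h in WT and KO. Tyrobp, the signalling adaptor of Trem2, read 6.88 and 7.10 against 8.07 and 8.38. Aif1, the gene of the microglial protein Iba1, read 7.68 and 7.96 against 9.22 and 9.15. For each of the 3 genes both 72 h arrays lay above both 48 h arrays, without overlap. The changes were 1.43 ± 0.13 for Trem2 (adjusted p = 0.00461), 1.36 ± 0.14 for Aif1 (adjusted p = 0.00631) and 1.24 ± 0.20 for Tyrobp (adjusted p = 0.0212). The receptor-like gene Fcrls, a marker of resident microglia, rose by 0.94, and its other tested probe was called too (0.99). Siglech, named after its value was seen, was called by 1 probe (0.93) but not by its other probe (0.08, adjusted p = 0.771). The resting markers Tmem119 (0.37), Cx3cr1 (0.15), P2ry13 (0.30) and Sall1 (0.23), also named after their values were seen, did not pass. P2ry12, another resting marker, was not above background on at least 2 arrays and was not tested. The contralateral differences of Trem2, Aif1 and Tyrobp were 0.60, 0.48 and 0.53 and were not called. Without single ipsilateral arrays between 0 and 3 members of the list were called higher, with 0 when KO at 48 h was left out and 2 when either WT array was.

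Genes of phagocyte activation and lipid handling were called higher in 6 of 16 measured cases and lower in none (median 0.52, and 0.23 with 4 called higher and 2 lower under median centring). Over all 9352 genes the shares were 1.87% higher and 1.5% lower, with 87 genes higher and 1640 lower under median centring. Beside Gpnmb the 6 called genes included Ctsz, a lysosomal protease, at 9.30 and 9.35 at 48 h and 10.31 and 10.49 at 72 h (1.07 ± 0.13, adjusted p = 0.00631). Igf1, a growth factor that activated microglia make, read 6.05 and 5.98 against 7.35 and 6.80 (1.06 ± 0.14). Ctsd, the lysosomal protease cathepsin D, read 11.16 and 10.95 against 11.99 and 11.95 (0.91 ± 0.13). In these 3 genes too the protocols did not overlap. Lgals3, a galectin of activated phagocytes, read 10.37 and 10.90 at 48 h and 11.02 and 11.84 at 72 h. The protocols did not overlap, but the KO array at 48 h lay only slightly below the WT array at 72 h, and the change did not pass (0.79 ± 0.21, adjusted p = 0.067). Leaving out 1 ipsilateral array left between 1 and 4 members called, with 1 when KO at 48 h or WT at 72 h was left out.

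Several of the other large increases were in genes that macrophages and microglia are known to express. Apoc2, the apolipoprotein that activates lipoprotein lipase, read 5.71 and 6.07 at 48 h and 6.94 and 7.84 at 72 h (1.498 ± 0.18, adjusted p = 0.00631), and it stayed at background on all contralateral and untreated arrays. Arl11, a small GTPase, changed by 1.21, the membrane protein gene Ms4a7 by 1.14, the lysosomal protease gene Ctsh by 1.14 and Pld4, which encodes a nuclease of endolysosomes, by 1.12. Both 72 h arrays exceeded both 48 h arrays in each of these 5 genes. Their contralateral differences ran from -0.18 for Apoc2 to 0.40 for Pld4. Psmc1, a subunit of the proteasome cap, followed another pattern. It read 5.66 and 5.84 at 48 h and 7.86 and 7.79 at 72 h (2.07 ± 0.28, adjusted p = 0.00714), but the contralateral means also differed, at 6.24 and 8.07 (1.82 ± 0.28, adjusted p = 0.142), and the untreated mean of 7.19 lay between the protocols.

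**Figure D2:**
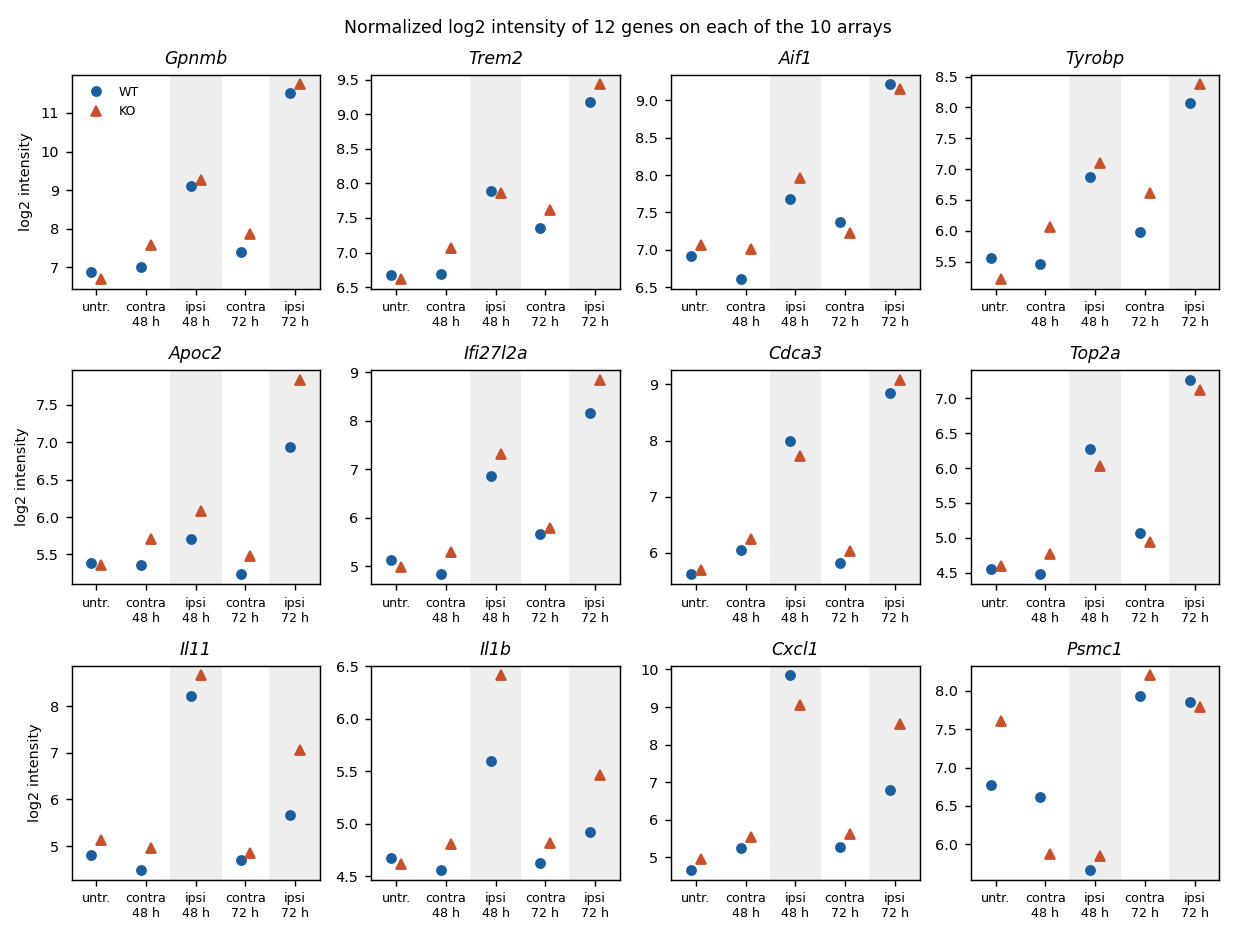
Normalized log2 intensity of 12 genes (y axis, a scale of its own for each gene) on each of the 10 arrays, grouped on the x axis by condition, with WT as circles, KO as triangles and ipsilateral arrays shaded. Gpnmb, Trem2, Aif1, Tyrobp, Apoc2, Ifi27l2a, Cdca3 and Top2a are higher at 72 h than at 48 h in both genotypes, Il11 and Il1b are lower, Cxcl1 is, among the 4 ipsilateral arrays, lowest on the WT array at 72 h, and Psmc1 differs on both sides of the brain.

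Complement and Fc receptor genes were called higher in 4 of 9 measured cases and lower in none (median 0.58, and 0.28 under median centring). For this list and the next, the shares of all genes were 1.87% higher and 1.5% lower. Fcer1g, the signalling chain of Fc receptors, read 10.30 and 10.55 at 48 h and 11.30 and 11.57 at 72 h. The 72 h arrays lay above the 48 h arrays, and the change was 1.01 ± 0.13 (adjusted p = 0.00714). The chains of C1q, which starts the classical complement pathway, rose together, C1qb by 0.82 (adjusted p = 0.027), C1qc by 0.80 (adjusted p = 0.0121) and C1qa by 0.73 (adjusted p = 0.0398), and C1qa was no longer called under median centring (adjusted p = 0.091). Antigen presentation genes were called higher in 4 of 12 measured cases, with all 12 differences positive (median 0.50, and 0.22 under median centring). They were the class II genes H2-Ab1 (0.86 ± 0.14) and H2-DMb1 (0.70 ± 0.13), the class I gene H2-K1 (0.83 ± 0.15) and B2m, the light chain of class I (0.72 ± 0.16), which lost its call under median centring (adjusted p = 0.137). The other tested probes of H2-Ab1 (0.67) and H2-DMb1 (0.53) were not called. H2-K1 was near background, above it on 1 array at 48 h and on no contralateral or untreated array. H2 genes are closely related in sequence, and the probe of 1 may read others. Without single ipsilateral arrays between 0 and 1 complement and Fc receptor genes were called and no antigen presentation gene was.

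Of 17 measured interferon-stimulated genes, 3 were called higher and none lower, against 1.87% and 1.5% of all genes. The list median was 0.20, against 0.012 for all genes, and -0.09, against -0.26, under median centring, where 2 were called higher and 1 lower. That scaling called 87 higher and 1640 lower of all 9352 genes. Ifi27l2a, an interferon-inducible gene of unsettled function, read 6.87 and 7.31 at 48 h and 8.16 and 8.84 at 72 h, without overlap (1.41 ± 0.17, adjusted p = 0.00631). Bst2, which tethers enveloped viruses to the cell, changed by 1.10 and Ifi30, a lysosomal thiol reductase of antigen processing, by 0.74, and Ifi30 lost its call under median centring (adjusted p = 0.109). The other tested probe of Ifi30 was not called (0.67). Psmb8, a subunit of the immunoproteasome, did not pass (0.66, adjusted p = 0.0529).

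Markers of other cells that the tissue could hold were set beside these groups. Of 29 listed genes of neutrophils and recruited monocytes 12 were measured, 14 were on the array but not above background on at least 2 arrays, among them Ccr2, Mpo, Elane and Ngp, and Ly6g had no assigned probe. The summed linear intensity of the measured members was 4161 and 5157 at 48 h and 4231 and 6624 at 72 h in WT and KO. The KO array exceeded the WT array in each protocol, and the protocols overlapped. The median difference was -0.34, with -0.59 in WT and 0.01 in KO. Lyz2, the lysozyme gene of macrophages and neutrophils, was the 1 member called, at 10.13 and 10.41 against 11.03 and 11.38 (0.93 ± 0.15, adjusted p = 0.0175). Its rise is part of the sums above, whereas 8 of the 12 members had a negative difference. Over all genes 1.87% were called higher and 1.5% lower. The neutrophil genes S100a8 (-0.95 ± 0.68, adjusted p = 0.439), Retnlg (-0.96, adjusted p = 0.0994) and S100a9 (-0.70, adjusted p = 0.286) did not pass. For S100a8 the values were 7.82 and 9.08 at 48 h and 6.58 and 8.42 at 72 h, so the KO array at 72 h lay above the WT array at 48 h. The summed intensity of the 12 microglial markers was 6571 and 5840 at 48 h and 10749 and 9809 at 72 h, without overlap. Of 18 lymphocyte genes, 2 were measured, Cd8b1 (0.27) and Il2rb (0.34), neither was called, and Cd3e, Cd4, Cd79a and Ms4a1 were not above background on at least 2 arrays. The part of recruited cells in the microglial and phagocyte results was not tested.

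Genes of DNA replication and mitosis held 11 of the called genes. Of 30 measured out of 40 listed, 11 were called higher and none lower, and all 30 differences were positive (median 0.43, and 0.24 with 8 called higher under median centring). Over all 9352 genes 1.87% were called higher and 1.5% lower, and 87 genes were called higher under median centring. Cdca3, which promotes entry into mitosis, read 7.996 and 7.72 at 48 h and 8.85 and 9.08 at 72 h. Cdc20, an activator of the anaphase-promoting complex, read 6.07 and 5.72 against 6.96 and 7.03. Top2a, the topoisomerase of dividing cells, read 6.27 and 6.03 against 7.27 and 7.12. In all 3 genes the 72 h arrays lay above the 48 h arrays, and these above the contralateral and untreated means. The changes were 1.11 ± 0.14 for Cdca3 (adjusted p = 0.00631), 1.10 ± 0.13 for Cdc20 (adjusted p = 0.00631) and 1.04 ± 0.14 for Top2a (adjusted p = 0.00714), and that of Prc1, a protein of the central spindle, was 1.06 ± 0.17 (adjusted p = 0.0196). The 7 other called members, named after their values were seen, were Tk1 (0.99), Plk1 (0.90), Rrm2 (0.83), Birc5 (0.80), Cdca8 (0.80), Cenpe (0.70) and Gins2 (0.65), which act in nucleotide supply, DNA replication and mitosis. Of their other tested probes, those of Birc5 were called (1.01 and 0.88). Those of Tk1 (0.49) and Gins2 (0.17 and 0.06) were not. The members that did not pass, from Mcm4 (0.06) to Cenpa (0.65), also come from both replication and mitosis. Without single ipsilateral arrays between 0 and 6 members were called, with 0 when KO at 48 h was left out, 3 without KO at 72 h and 4 without WT at 72 h.

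Promoter windows of these genes are shown because 11 members rose together and many genes of mitosis are known to share a CCAAT box, which NF-Y binds, and a cell cycle genes homology region (CHR), which the MuvB complex binds. The windows run 5′ to 3′ from upstream of the transcription start to shortly after it and come from RefSeq on GRCm38.p6. Capitals mark CCAAT and the CHR letters TTTGAA or TTCGAA on either strand.
Cdca3, chr6:124829926-124830225, plus strand: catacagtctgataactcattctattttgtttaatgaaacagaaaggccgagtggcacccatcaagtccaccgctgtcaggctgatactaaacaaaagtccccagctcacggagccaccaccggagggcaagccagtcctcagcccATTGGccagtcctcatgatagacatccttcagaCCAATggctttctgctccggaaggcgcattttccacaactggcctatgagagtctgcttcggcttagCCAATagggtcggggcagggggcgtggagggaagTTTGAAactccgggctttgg
Cdc20, chr4:118437294-118437593, minus strand: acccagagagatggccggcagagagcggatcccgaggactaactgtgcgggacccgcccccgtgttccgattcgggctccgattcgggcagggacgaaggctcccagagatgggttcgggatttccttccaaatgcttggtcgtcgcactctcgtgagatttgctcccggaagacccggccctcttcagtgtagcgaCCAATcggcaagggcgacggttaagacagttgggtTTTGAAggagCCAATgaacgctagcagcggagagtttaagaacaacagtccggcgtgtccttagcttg
Top2a, chr11:99024140-99024439, minus strand: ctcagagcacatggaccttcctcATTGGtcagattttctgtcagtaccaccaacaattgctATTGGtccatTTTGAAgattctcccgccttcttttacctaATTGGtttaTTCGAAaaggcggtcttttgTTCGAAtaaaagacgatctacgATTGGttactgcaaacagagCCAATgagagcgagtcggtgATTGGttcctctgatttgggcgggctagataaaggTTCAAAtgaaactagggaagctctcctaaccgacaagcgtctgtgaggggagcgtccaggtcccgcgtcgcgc
Of the 11 called genes 10 had a window in the table. A CCAAT box stood in 8 of them (80%), a CHR match in 6 (60%) and both in 6 (60%). Among the 7603 tested genes with a window the shares were 42.6%, 15.8% and 6.35%. The 3 windows above hold both motifs. Short motifs occur by chance in any window, and a match is a description and not a binding site.

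Of the acute chemokines and cytokines, 15 of 27 were measured, 2 were called lower and 1 higher (median -0.22, and -0.54 with 5 called lower under median centring). Over all 9352 genes 1.5% were called lower and 1.87% higher (median 0.012). Median centring called 1640 of them lower, with a median of -0.26. Il11, a cytokine of the interleukin-6 family, was the lowest of all called genes. It read 8.22 and 8.66 at 48 h and 5.66 and 7.05 at 72 h. Both 72 h values lay below both 48 h values but above the contralateral and untreated means, which ran from 4.73 to 4.97. The change was -2.08 ± 0.24 (adjusted p = 0.00631), and -2.60 to -1.56 without single arrays, with adjusted p-values up to 0.103. Il1b, the gene of interleukin-1 beta, read 5.59 and 6.41 at 48 h and was not above background on either 72 h array, and it was at least 1.74-fold lower at 72 h (adjusted p = 0.0448). Its call was lost without single ipsilateral arrays (highest adjusted p = 0.357). Cxcl16, a membrane-bound chemokine, was called higher at 72 h (0.86 ± 0.17, adjusted p = 0.0316). Ccl2, a monocyte-attracting chemokine, was not above background on at least 2 arrays and was not tested.

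The neutrophil-attracting chemokine gene Cxcl1 differed between genotypes. It read 9.84 and 9.06 at 48 h and 6.81 and 8.56 at 72 h in WT and KO, while contralateral and untreated arrays were not above background. Both 72 h arrays lay below both 48 h arrays, and the WT array at 72 h lay lowest. The mean change did not pass (-1.77 ± 0.42, adjusted p = 0.052). The change was -3.04 in WT and -0.50 in KO, and the difference between these, KO minus WT, was 2.54 ± 0.25 (adjusted p = 0.0175). The spread behind this test comes from the KO minus WT differences on the contralateral and untreated arrays, where Cxcl1 was at background, and from their mean on the ipsilateral arrays, and none of the 4 arrays was replicated. It was the 1 gene of 9352 (0.0107%) called in the test of a genotype difference, and 225 genes had an unadjusted p under 0.05. Selp, the gene of P-selectin on activated vessels, read 7.72 and 7.77 at 48 h and 5.01 and 7.58 at 72 h. Only the WT array at 72 h stood apart, at background, and neither its mean change (-1.45 ± 0.52, adjusted p = 0.145) nor its genotype difference passed. Lcn2, a siderophore-binding protein of reactive astrocytes and neutrophils, read 10.57 and 10.96 against 8.69 and 10.37 (-1.23 ± 0.37, adjusted p = 0.0975). Its WT array at 72 h again lay lowest.

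The median changes of several lists lay apart in the genotypes. Endothelial genes had a median change of -0.43 in WT and 0.12 in KO, immediate early genes -0.59 and -0.07, reactive astrocyte genes -0.42 and 0.00, matrix and scar genes -0.30 and 0.29, and glucocorticoid-responsive genes -0.50 and 0.15. The WT array at 72 h had the lowest summed intensity of the 4 ipsilateral arrays in each of these 5 lists. For immediate early genes the WT array at 48 h lay farthest from the rest, at 10932 against 7119 to 8327 on the other 3. No genotype difference was called for any member of these 5 lists, and the difference between their medians was not tested. Across all genes the differences of WT and KO correlated at 0.562, with 69.6% of genes of the same sign, as a description across genes that share arrays.

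Glial and vascular lists are given beside the shares of all genes, of which 1.87% were called higher and 1.5% lower. Of 26 measured genes of reactive astrocytes 1 was called higher and 2 lower (median -0.23). Lgals3bp, a secreted glycoprotein that binds galectins, rose by 0.92 ± 0.11 (adjusted p = 0.00631). Synm, an intermediate filament gene, fell by 0.61 (adjusted p = 0.0424), with a contralateral difference of -0.62 and another probe that was not called (-0.14), and B3gnt5, a glycosyltransferase gene, was at least 1.44-fold lower (adjusted p = 0.0437). Gfap, the astrocyte filament gene, read 12.45 and 12.11 at 48 h and 12.20 and 12.14 at 72 h. Its protocols overlapped, and it did not pass (-0.11 ± 0.15, adjusted p = 0.693). No homeostatic astrocyte gene of 15 measured was called. Of 24 endothelial genes 1 was called, Flt1, a receptor of vascular endothelial growth factor, which fell by 0.58 ± 0.11 (adjusted p = 0.0295). Of 23 matrix and scar genes the collagen gene Col1a1 (0.89 ± 0.17, adjusted p = 0.0306) and the gelatinase gene Mmp2 (0.78 ± 0.16, adjusted p = 0.0319) were called higher and none lower. Of 23 genes of oligodendrocytes and myelin 1 was called, the myelin surface protein gene Mog (0.73 ± 0.16, adjusted p = 0.0427), which lost its call under median centring (adjusted p = 0.143). The other tested probe of Mog was not called (0.74). The endothelial and reactive astrocyte medians became -0.48 and -0.49 under median centring, with 10 and 12 members called lower. That scaling also called 6 matrix and scar genes and 3 homeostatic astrocyte genes lower, and no myelin gene. Of all 9352 genes it called 1640 lower.

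**Figure D3:**
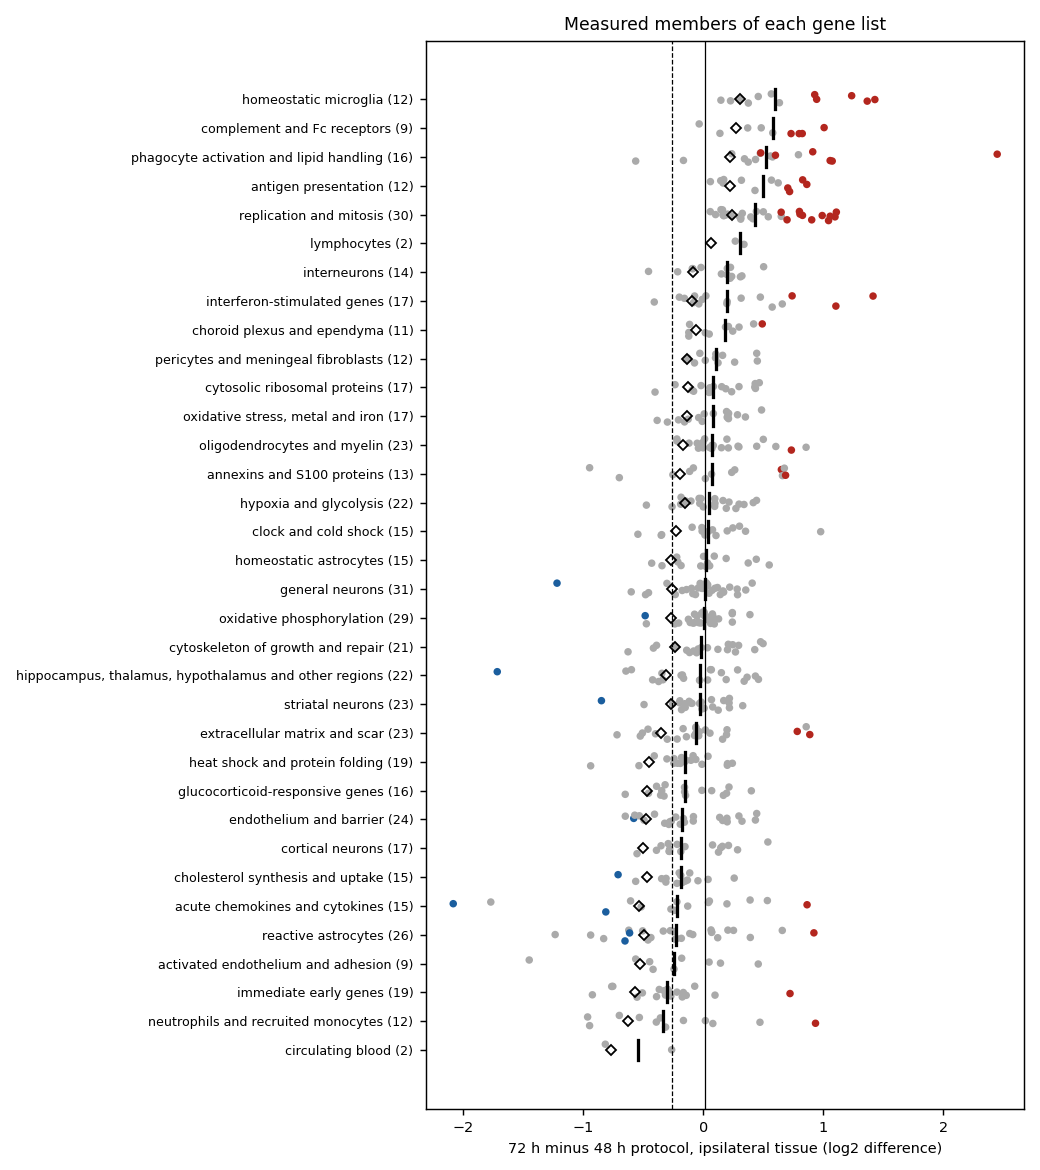
Difference between protocols (x axis, 72 h minus 48 h, log2) of each measured member of 34 gene lists (y axis, number measured in brackets, ordered by median), red where called higher, blue where called lower and grey otherwise. Black bars are list medians and open diamonds the medians under median centring, and the solid and dashed lines mark the median of all genes by each scaling (0.012 and -0.26). The lists of microglia, complement, phagocytes, antigen presentation and replication sit highest.

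Neuronal lists held 1 called gene or none each under quantile normalization, near the share of all genes (1.87% called higher and 1.5% lower). Of 31 general neuronal genes 1 was called (median 0.02), of 23 striatal genes 1 (median -0.03), of 22 genes of other regions 1 (median -0.03), and of 17 cortical and 14 interneuron genes none. Median centring called 5, 5, 7, 8 and 1 of them lower, in that order, and none higher, against 1640 of all 9352 genes called lower. Map2, which encodes a dendritic microtubule protein, read 8.34 and 8.56 at 48 h and 6.69 and 7.77 at 72 h, without overlap (-1.22 ± 0.28, adjusted p = 0.0454). Its contralateral difference was -1.28, and its other 4 tested probes gave values from -0.39 to 0.10, none called. Gnal, the G-protein subunit that couples striatal dopamine receptors, read 7.37 and 7.19 against 6.51 and 6.35 (-0.85 ± 0.12, adjusted p = 0.0114), with a contralateral difference of -0.06. Pcp2, a gene of cerebellar Purkinje cells, read 5.91 and 6.55 at 48 h and was not above background on any other of the 10 arrays. It was at least 2.34-fold lower at 72 h (adjusted p = 0.00549). The dopamine receptor gene Drd1 (-0.49, adjusted p = 0.195) and the opioid precursor gene Pdyn (0.33, adjusted p = 0.125) did not pass.

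The remaining large decreases were in genes of mixed function. Prkaa2, the catalytic alpha-2 subunit of AMP-activated kinase, read 6.64 and 6.79 at 48 h and was not above background at 72 h (at least 2.41-fold lower, adjusted p = 0.00631). The histone methyltransferase gene Nsd1 was at least 2.03-fold lower, the methionine sulfoxide reductase gene Msra at least 1.95-fold and the paralemmin gene Palm2 at least 1.86-fold. Jcad, a gene of endothelial junctions, fell by 0.92 ± 0.17 (adjusted p = 0.0274), with a contralateral difference of 0.20. Mmp16, a membrane-bound metalloproteinase gene (-1.003), Vps13a, a lipid transfer protein gene (-0.92), the endosomal gene Zfyve16 (-0.91) and the Polycomb-associated gene Asxl3 (-0.91) were called too. Of these, Nsd1 (-0.87), Mmp16 (-0.78) and Vps13a (-0.80) had contralateral differences nearly as large. The other tested probe of Mmp16 gave 0.01, and those of Vps13a -0.62 and -0.07, none of them called.

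Stress and metabolic lists held 1 called gene or none each, where 1.87% of all genes were called higher and 1.5% lower. No gene was called among 19 measured of heat shock, 17 of oxidative stress, 22 of hypoxia and glycolysis, 15 of clock and cold shock, 16 of glucocorticoid response or 17 of cytosolic ribosomes. Median centring called 8, 2, 3, 3, 5 and 2 of these lower, in that order, and 1 clock gene higher. Of all 9352 genes it called 1640 lower. Hmox1, which breaks down heme, read 8.54 and 8.31 at 48 h and 7.54 and 8.54 at 72 h. The protocols overlapped, and it did not pass (-0.38 ± 0.23, adjusted p = 0.354). The small heat shock protein gene Hspb1 did not pass either (-0.94 ± 0.36, adjusted p = 0.173). Msmo1, an enzyme of cholesterol synthesis, fell by 0.71 (adjusted p = 0.0427) as the 1 called gene of 15, and Atp5c1, a subunit of ATP synthase, fell by 0.48 (adjusted p = 0.0442) as the 1 of 29 genes of oxidative phosphorylation, against 4 and 2 called lower under median centring. Of 19 immediate early genes 17 had a negative difference and 1 was called, the transcription factor gene Jun, which was higher (0.72 ± 0.13, adjusted p = 0.0241) and lost its call under median centring (adjusted p = 0.103). Under that scaling 10 immediate early genes were called lower and none higher. Fos did not pass (-0.92 ± 0.36, adjusted p = 0.178). Blood genes were measured in 2 of 15 cases, Alas2 (-0.82, adjusted p = 0.0887) and Hba-a1 (-0.26, adjusted p = 0.293), and neither passed.

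The same contrast was made in the contralateral hemispheres, away from the lesion. No gene of 9352 was called there by limma (0%), with 979 at an unadjusted p under 0.05 against 2030 in ipsilateral tissue. With 1 array per genotype and protocol, a count of 0 cannot show that the protocols did not differ there. Subtracting the contralateral difference left 1 gene called, Gpnmb (0.0107%), with 1022 at an unadjusted p under 0.05. The SD across genes of the KO minus WT difference between protocols was 0.36 in contralateral and 0.29 in ipsilateral tissue. The 175 higher genes had a median change of 0.70 in ipsilateral and 0.14 in contralateral tissue, where 51 had the opposite sign and 23 (13.1%) had a difference at least 0.5 times the ipsilateral one. The 140 lower genes had medians of -0.63 and -0.11, with 41 of opposite sign and 33 (23.6%) at least 0.5 times as large. The members were chosen by the ipsilateral difference, so these shares are a description.

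**Figure D4:**
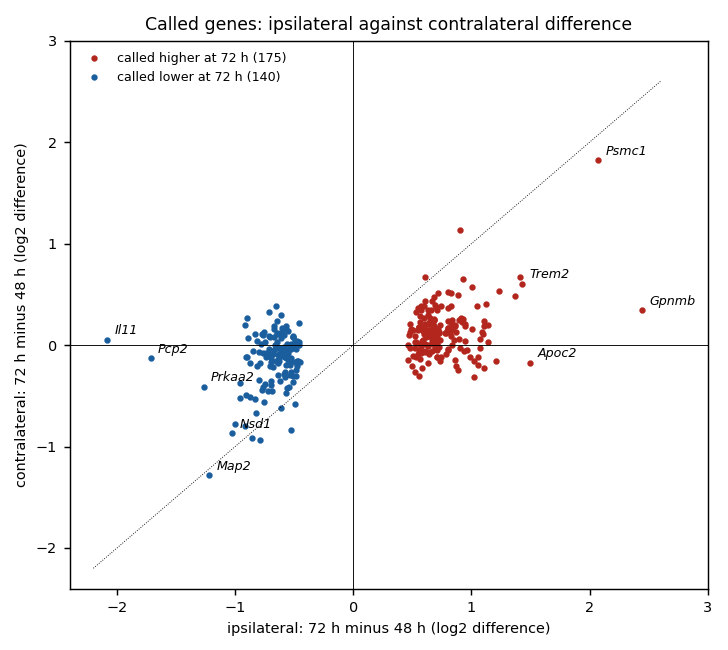
Difference between protocols (72 h minus 48 h, log2) of the 315 called genes in ipsilateral tissue (x axis) and in contralateral tissue (y axis), with the line of equal difference dotted. Gpnmb, Apoc2, Il11 and Pcp2 lie near the horizontal axis, whereas Psmc1 and Map2 lie near the dotted line.

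The levels were then set against the mean of the 6 contralateral and untreated arrays. Of the 175 higher genes, 125 were above that mean in both protocols and farther above it at 72 h, 42 were below it at 48 h and above it at 72 h, and 8 were below it in both. Of the 140 lower genes, 113 were above it at 48 h and below it at 72 h, 17 were above it in both and 10 below it in both. Gpnmb, Trem2 and Cdca3 belong to the first group, and Il11 to the 17. The genes were chosen by their difference on the ipsilateral arrays, so these counts follow in part from that choice and are a description. Of the 315 genes, 53 were on a list and 262 on none. For 77 called genes 101 further probes were tested, of which 75 had the same sign and 11 were called with it. Those 11 belonged to genes called higher, except for probes of Alg11 (-0.63) and Epm2aip1 (-0.50). The 26 probes of opposite sign belonged to genes called lower, except for those of Apip, Ptpn11 and Trappc13. Second probes thus bore out the lower calls less often than the higher ones.

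**Figure D5:**
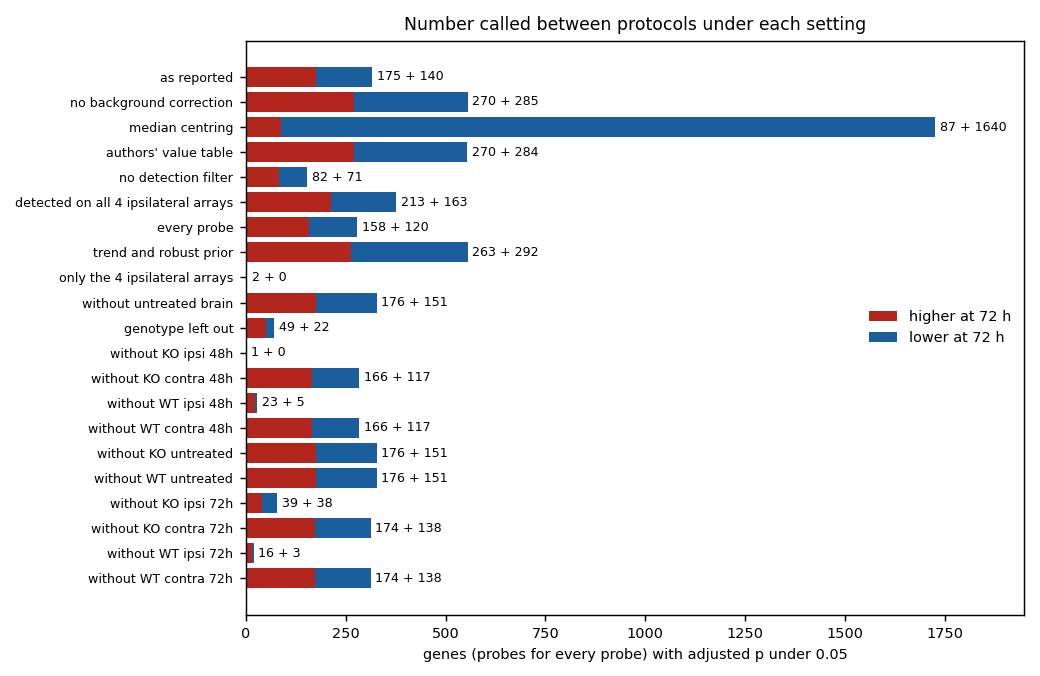
Number of genes with an adjusted p under 0.05 between the protocols in ipsilateral tissue (x axis, probes for every probe) under each setting (y axis), red for higher and blue for lower at 72 h. The count is 315 as reported, 1727 under median centring and between 1 and 77 when 1 of the 4 ipsilateral arrays is left out.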

How the data were processed

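Biotinylated cRNA was hybridised to Illumina Mouse-6 arrays, per the labels' protocols. Per the file headers, the deposited non-normalized table gives for each array a linear bead intensity and a detection value. That detection p-value rises with intensity, so it was deposited as 1 minus p and was turned round. The authors' value table holds intensity that the authors had quantile-normalized within 5 pairs of arrays, as its values show, with the ipsilateral arrays of the 2 protocols in different pairs. It was used as an alternative, after normalization over all arrays. The authors' software is not given in the sources used here.

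Background was corrected in limma 3.58.1 under R 4.3.3 (nec, offset 16), followed by quantile normalization and log2. Of 46373 probes, 29800 had 1 gene in the platform annotation, 10 several and 16563 none, and RefSeq matched 29746. Kept were probes whose detection p was under 0.01 on 2 or more arrays, and each of 9352 genes was read from its brightest probe. The additive limma model held 5 conditions and genotype on all 10 arrays (4 residual degrees of freedom), and 3 were left with a term for the genotype difference. P-values were adjusted by Benjamini-Hochberg over all genes. Bounds written as at least N-fold use, on arrays below background, the higher of the probe value and the lowest level detected there. Genotype pairs come from the labels. The code was tested on simulated data.

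The comparison, the members and the 34 gene lists were chosen with earlier results of these data known, and no list was tested. Named were the 12 highest and 12 lowest called genes with the same sign in both genotypes (predicted transcripts skipped), up to 4 members of each list, called ones first and then by size of change, the genes called for a genotype difference, and Cd93, Gfap, Il1b, Lgals3, Ccl2 and Hmox1. Alternatives varied the background correction, scaling, source table, detection filter, probe choice, variance prior, arrays in the fit and the genotype term, and left out each array in turn.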

Additional observations from a re-analysis of the deposited data

Results flagged for a closer look

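Cxcl1, a neutrophil-attracting chemokine gene, differed between the genotypes in its change from the 48 h to the 72 h protocol in ipsilateral tissue. The KO minus WT difference was 2.54 ± 0.25 on the log2 scale (limma adjusted p = 0.0175), with changes of -3.04 in WT and -0.50 in KO. Each genotype has 1 array per protocol, the spread behind the error comes largely from contralateral and untreated arrays on which Cxcl1 was not above background, and the WT array at 72 h (6.81) lay farthest from the other 3. Median centring and no detection filter each ended the call, and the remaining alternatives that could be fitted kept 1 gene called. Its cause was not tested.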

How the results depend on the processing

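With 1 array per genotype and protocol, precision is limited by the number of arrays, and genes near background are limited by signal. The count of 315 genes between protocols in ipsilateral tissue became 555 with no background correction, 554 with the table of the authors, 1727 with median centring, 153 with no detection filter, 555 with a variance trend and robust prior, 71 with the genotype block left out and 2 with the 4 ipsilateral arrays alone, which leave 1 residual degree of freedom. Of the 315 genes, 284 were also called with no background correction and 137 with no detection filter. Detection on all 4 ipsilateral arrays (376), every probe (278) and leaving out untreated brain (327) kept the count within 1.5 times. Leaving out 1 array gave 1 to 327 genes. In contralateral tissue the count of 0 became 1 with median centring, and 0 to 1 without single arrays. After subtracting the contralateral side the count of 1 became 7 with no background correction, 7 with the table of the authors, 3 with every probe, 6 with a variance trend, 0 with median centring, with no detection filter and with the genotype block left out, and 0 to 5 without single arrays. The count of 1 for a genotype difference became 0 with median centring and with no detection filter. Apart from what its construction shows, the cause of each shift was not tested.

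Median centring turned Cd8b1 (-0.032) and Aqp1 (-0.016), neither of them called. Leaving out single arrays gave ranges that cross 0 for Hmox1 (-0.85 to 0.085), Mmp3 (-1.54 to 0.11), Isl1 (-0.58 to 0.065), Cd93 (-0.97 to 0.16) and Gfap (-0.30 to 0.071), none of them called. The 58 called named genes kept their direction under every alternative that gave them a value, and 56 lost their call with the 4 ipsilateral arrays alone, 57 without KO at 48 h, 46 without WT at 72 h, 42 without WT at 48 h, 32 without KO at 72 h, 31 with the genotype block left out, 28 with no detection filter and 8 with median centring.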

Other observations

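The following lists and genes belong to none of the groups above. For the lists, the shares of all genes called were 1.87% higher and 1.5% lower. Of 13 measured annexin and S100 genes, S100a13 (0.69 ± 0.16, limma adjusted p = 0.0496) and S100a1 (0.65 ± 0.14, adjusted p = 0.0386) were called higher at 72 h, and both lost their calls under median centring (adjusted p = 0.207 and 0.20). Of 11 choroid plexus and ependyma genes, Rsph1, a gene of motile cilia, was called higher (0.49 ± 0.11, adjusted p = 0.049, and 0.364 under median centring). None of 9 measured genes of activated endothelium and adhesion (median -0.24), 21 of the cytoskeleton (median -0.02) or 12 of pericytes and meningeal fibroblasts (median 0.10) was called, against 4, 4 and 0 called lower under median centring. That scaling called 1640 of all 9352 genes lower.

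Some genes, chosen after their values were seen, stood apart on single arrays. Pop4, a subunit of ribonuclease P, read 9.20 and 8.99 at 48 h and 9.31 and 4.81 at 72 h in WT and KO ipsilateral tissue, and 5.04 and 4.55 on the WT contralateral arrays of the 48 h and 72 h protocols, against 9.25 and 9.22 on the KO contralateral arrays. Crebbp, a histone acetyltransferase gene, read 5.05 on the ipsilateral and 5.31 on the contralateral WT array at 72 h, against 6.97 to 7.75 on the other 8 arrays. Arg1, an arginase gene of activated macrophages, read 7.03 and 7.69 at 48 h and 5.51 and 8.58 at 72 h in WT and KO. The beta-globin gene Hbb-bs was called lower at 72 h (-0.79 ± 0.14, adjusted p = 0.0253), at 13.60 and 13.76 against 12.65 and 13.12, but its other 4 tested probes were not called (-0.03, -0.49, -0.51 and -0.70), and Hbb-bt did not pass (-0.59, adjusted p = 0.159).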
